A study of Bos taurus with 8 samples.

Results

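The 9 genes described here were APOA1, TF, PCK1, ADH6, FGFR4, GJB1, KRT20, SLC39A5 and PPP1R16B, out of 12603 named bovine genes on the array. They were chosen because their signal was high in N7 alone, 1 of the embryo-derived stem-like cell (eSLC) lines from nuclear transfer (NT) embryos. Their height in N7 is therefore how they were picked and not a finding, and no test of N7 against other arrays is given for them.

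Total RNA was measured on 8 one-colour Agilent arrays. I2 (passage 35) and I9 (passage 30) were eSLC lines from in vitro produced (IVP) blastocysts, N2 (passage 36) and N7 (passage 30) from NT blastocysts, and P1 (passage 31) and P4 (passage 36) from parthenogenetic (PA) blastocysts. Somatic cells (SCs) at passages 5 and 10 were the reference. All cells came from HanWoo, a Korean cattle breed.

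The eSLCs grew on inactivated murine STO feeder cells in a serum-free medium (3i) with PD184352, SU5402 and CHIR99021, inhibitors of MEK, the FGF receptor and GSK3, whereas the SCs grew in DMEM with serum. Donor nuclei of the NT embryos were from ear skin cells. Each eSLC line started from 1 blastocyst and was measured once, so N7 stands for 1 line, 1 passage and 1 array. Signals were divided by the 75th percentile of their array and set to a level of 1000 there, and any value under 13.3, the floor, was set to it. N7 had the highest 75th percentile of the 8 arrays (4092 scanner units, lowest 1192) and the highest share of spots well above background (76.7%, lowest 71.2%).

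Hepatocytes make most of the plasma proteins, among them the apolipoproteins and carriers such as transferrin, and they make glucose and oxidize alcohols. Many of these genes are read under HNF4A, a nuclear receptor that is active in liver, in gut epithelium and, in the embryo, in the visceral endoderm and yolk sac, which secrete plasma proteins before the liver forms. The lines measured here carry strong trophectoderm markers, the genes of the outer layer of the blastocyst.

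Of the 2 plasma proteins, APOA1, the main protein of high-density lipoprotein, had a normalized signal of 112600 in N7. It was 2655 in I2, 1097 in I9, 1485 in N2, 6823 in P1 and 1213 in P4, and 5685 and 4892 in SCs at passages 5 and 10. Every array thus showed APOA1, and N7 lay 16.5-fold above the next one, P1. N7 was 5.78 above the mean of the other 5 eSLC lines on the log2 scale (55.1-fold), with an SD between those lines of 1.09 (n = 5). In these bulk RNA samples, more cells of a kind and more RNA per cell cannot be told apart.

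TF, which encodes transferrin, the iron carrier of plasma, had a signal of 460 in N7 and 25.3 in N2, 16.8 in P1 and 14.9 in P4. It was at the floor in I2, I9 and both SC arrays. N7 was 28.4-fold above the other eSLC lines, of which 4 of 5 were well above background, and 18.2-fold above N2, the other NT line.

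Among the metabolic enzymes, PCK1, the cytosolic phosphoenolpyruvate carboxykinase of glucose synthesis, was 1546 in N7, 129 in I2, 141 in I9, 60.2 in N2, 67.5 in P1 and 64.1 in P4. It was 60.6 and 24.2 in SCs at passages 5 and 10. N7 was 4.17 above the mean of the other lines on the log2 scale (17.96-fold), whose SD was 0.60 (n = 5). ADH6, an alcohol dehydrogenase, was 348 in N7 and 32.3 in P1 and lay at the floor on the other 6 arrays. Only 2 of the other 5 eSLC arrays had it well above background, so its 22.0-fold difference rests mostly on floor values.

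Of the surface proteins, FGFR4, a receptor for fibroblast growth factors and in liver for FGF19, was 851 in N7. It was 50.9 in I2, 32.8 in I9, 33.5 in N2, 74.8 in P1 and 32.3 in P4, and at the floor in both SC arrays. All 5 other eSLC lines thus had some FGFR4 signal, and N7 was 4.33 above their mean on the log2 scale (20.1-fold, SD 0.54, n = 5). GJB1, which encodes connexin 32, the main gap junction protein of hepatocytes, was 5047 in N7. On its brightest probe, the other 7 arrays had nearly the same GJB1 signal as each other, from 228 in N2 to 319 in P1. SCs had 255 and 262 at passages 5 and 10. A second probe, given below, was not even across the arrays. N7 was 4.23 above the mean of the other eSLC lines on the log2 scale (18.8-fold, SD 0.18, n = 5). SLC39A5, the zinc importer ZIP5 of gut, pancreas and liver, was 3419 in N7, 121 in I2, 224 in I9, 200 in N2, 237 in P1 and 198 in P4. SCs had less than any eSLC line, 54.3 at passage 5 and 60.9 at passage 10. N7 was 17.9-fold above the other eSLC lines (4.16 on the log2 scale, SD 0.38, n = 5).

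KRT20, a keratin of intestinal epithelium, had a signal of 326 in N7 and was at the floor, and not well above background, on the other 7 arrays. Its fold is a lower bound, at least 24.5-fold, taken against the floor of 13.3. PPP1R16B, a regulatory subunit of protein phosphatase 1 best known from endothelium, was 1304 in N7, 119 in I2, 82.0 in I9, 61.0 in N2, 81.7 in P1 and 27.7 in P4. In SCs it was 91.3 and 102, within the range of the other eSLC lines. N7 was 19.5-fold above them (4.28 on the log2 scale, SD 0.79, n = 5).

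**Figure D1:**
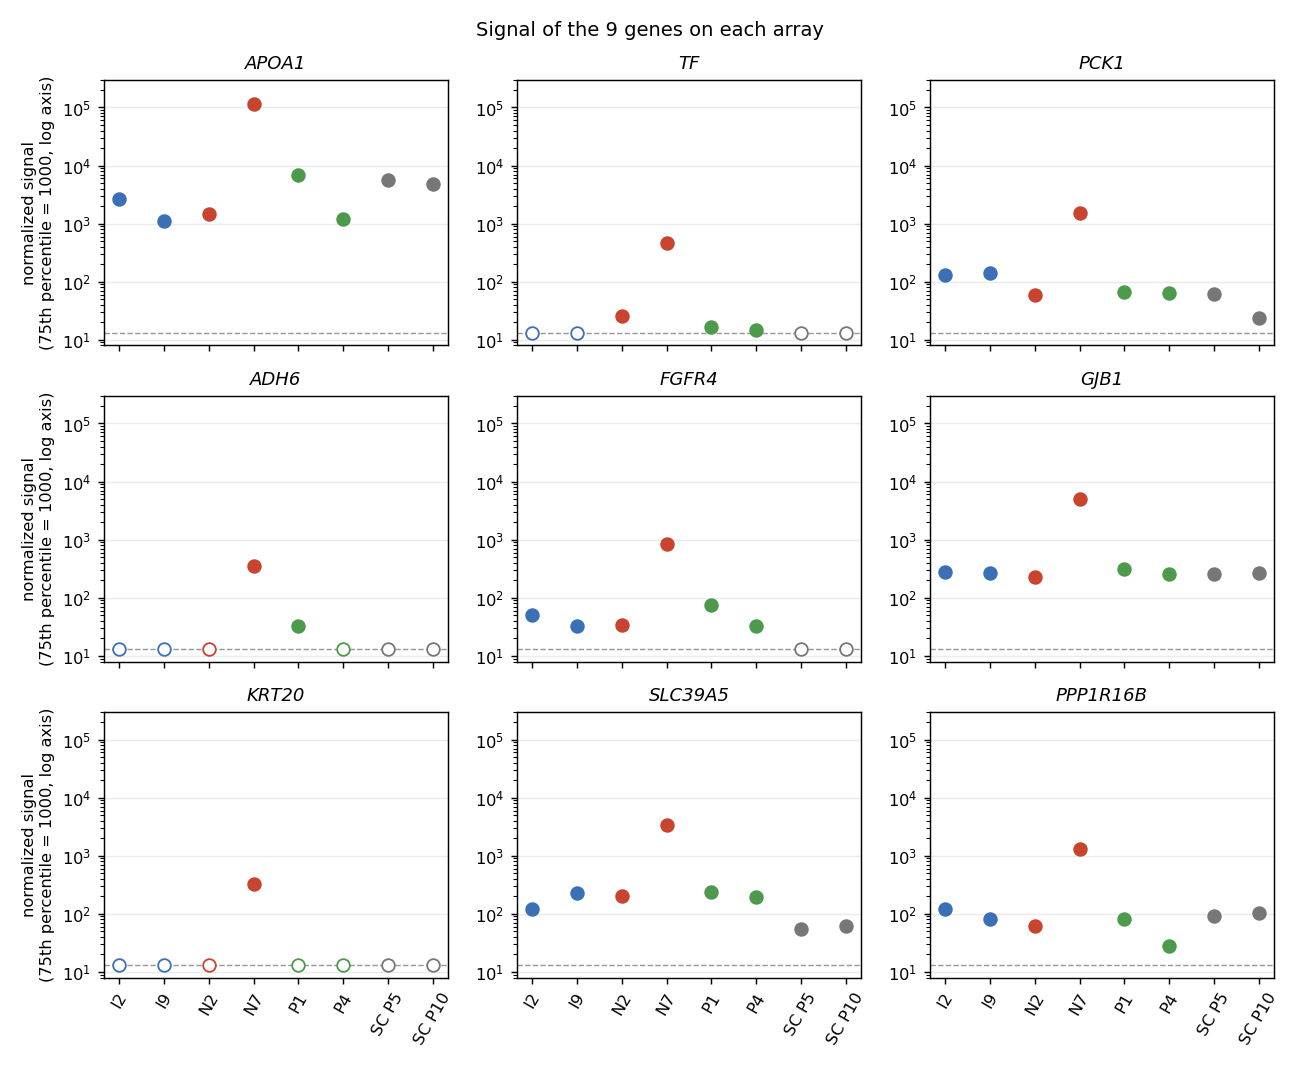
Normalized signal (log axis, 75th percentile of each array = 1000) of each of the 9 genes on the 8 arrays, 1 point per array, with IVP lines in blue, NT lines in red, PA lines in green and SCs in grey. Open points lie at the floor of 13.3 (dashed line). N7 lies above every other array in all 9 panels, with the smallest gap to the next array in ADH6 (10.8-fold) and the largest in KRT20.

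The other arrays did not order the 9 genes alike. P1 was the next eSLC line after N7 for 5 of them (APOA1, ADH6, FGFR4, GJB1 and SLC39A5), while N2 was next for TF, I9 for PCK1 and I2 for PPP1R16B. On the brightest probe of each gene, the lines other than N7 spanned 1.40-fold in all for GJB1 and 1.96-fold for SLC39A5. For APOA1 they spanned 6.22-fold, which is the gap of P1 over I9. N2 shares the NT origin of N7, yet N7 exceeded it by 17.1-fold (SLC39A5) to 75.8-fold (APOA1). N7 and N2 also differed in EIF1AY, DDX3Y and USP9Y, genes of the Y chromosome given below, while ZFY had signal in both. Whether these lines had the same donor animal is not stated.

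N7 shared its slide with I2, I9 and SCs at passage 5, and the other 4 arrays lay on a second slide. Within its own slide N7 was 11.47-fold (PCK1) to 66.0-fold (APOA1) above the mean of I2 and I9. Against N2, P1 and P4 on the other slide it was 16.2-fold (SLC39A5) to 48.8-fold (APOA1) higher. The choice of genes fixes this direction.

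A gene was called higher in N7 when its signal was at least 2-fold above each of the other 5 eSLC lines and well above background in N7. This held for 335 of the 12603 genes (2.66%) and for all 9 chosen ones, where nothing can be read from the count. In the other direction 297 genes (2.36%) were at least 2-fold below each of the 5. By the same rule the next most distinct line, P1, had 188 genes higher and 42 lower, and the other 4 lines had 19 to 54 higher and 7 to 21 lower. At 4-fold, 158 genes (1.25%) were higher in N7, and all 9 were among them.

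**Figure D2:**
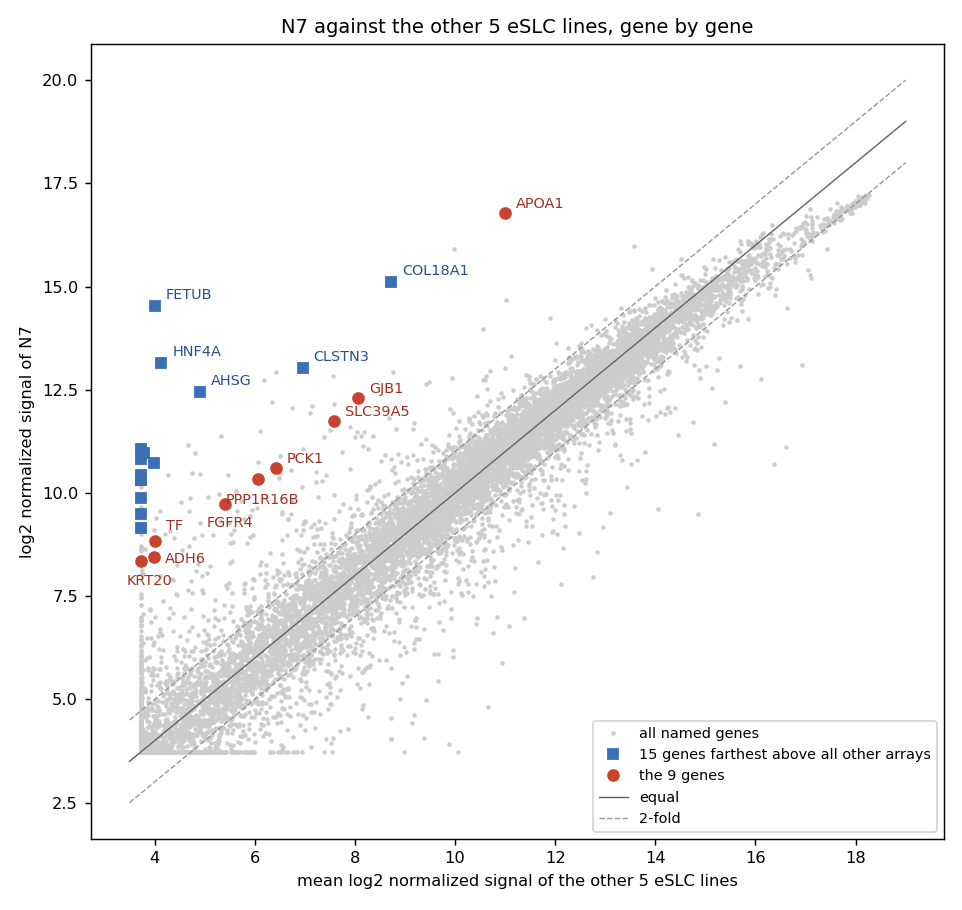
Log2 normalized signal of N7 (vertical) against the mean log2 signal of the other 5 eSLC lines (horizontal) for 12603 genes (grey), with the 9 genes in red and the 15 genes farthest above every other array in blue. Most genes lie along the line of equal signal, the 9 genes lie 4.16 to 5.78 above it, and at the bright end the grey points lie below it.

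At the bright end of the scale N7 read low. The 117 genes with a mean log2 signal of 17 or more in the other lines had a median difference of -0.94 in N7, against -0.01 over all genes. With quantile normalization, which gives all arrays the same distribution, that median was -0.01. APOA1 had a log2 signal of 16.78 in N7, and its difference from the other lines was 6.46 with quantile normalization.

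The array carried 26 probes for the 9 genes. By the same rule 19 of the 26 were higher in N7, and 6 of the 8 genes with more than 1 probe had at least 2 such probes. The genes were chosen by such signals, so these counts add no support, and no share over all probes is given beside them. The 3 probes of APOA1 were 55.1-fold, 57.3-fold and 178-fold above the other lines, and those of ADH6 were 22.0-fold and at least 4.19-fold above them. For TF, 4 of 6 probes were higher, with signals in N7 of 460, 217, 182 and 35.1. For PPP1R16B, 3 of 4 were higher, with 1304, 619 and 208 in N7. GJB1 and FGFR4 each rested on 1 probe, and SLC39A5 had only 1.

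Of the 7 probes that were not higher in N7, 3 were not well above background there, 1 each of FGFR4, PCK1 and TF. The other 4 were measured. A second probe of GJB1 had 89.2 in N7, below 121 in N2. It had 72.8 in I9 and 15.3 in P4, and was at the floor in I2, P1 and both SC arrays. A further probe of TF had 24.0 in N7 and 36.6 in P1, and a further probe of PPP1R16B had 66.7 in N7 against 49.4 to 80.9 in the other eSLC lines. The last, a probe of FGFR4, was at the floor on all 8 arrays.

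The deposited value table of the authors gave other values for some of these probes. On 10166 probes of the array, termed list probes here, the processed signal of 7 of the 8 scanner files matched that table within 3% after 1 common factor. In 6 of the 8 files the processed signal did not follow the other scanner columns. Of the 26 probes, 5 were list probes, and these included the brightest probe of APOA1, GJB1, SLC39A5 and PPP1R16B.

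In the authors' table the brightest probe of APOA1 had 3478 in N7 and 3108 in N2, and 18074 in both SC arrays. Another probe of APOA1 outside the list had 680002 in N7 and 1383 in N2 in that same table. For the brightest probe of GJB1 the table had 441 in N7 and 440 in N2, and for SLC39A5 414 in N7, 412 in N2, 9381 in P1 and 9647 in P4. For FGFR4, a list probe that was at the floor by scanner signal had 2316 in N7 and 2461 in N2.

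None of the 5 list probes was higher in N7 by the authors' table, while 4 were by scanner signal. Among the 21 probes outside the list, 15 were higher in N7 by both. From the authors' table APOA1, ADH6, FGFR4, KRT20, PCK1, PPP1R16B and TF thus each had at least 1 probe that was higher in N7, while GJB1 and SLC39A5 had none. The statements on GJB1 and SLC39A5 rest on scanner signal of a list probe alone.

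**Figure D3:**
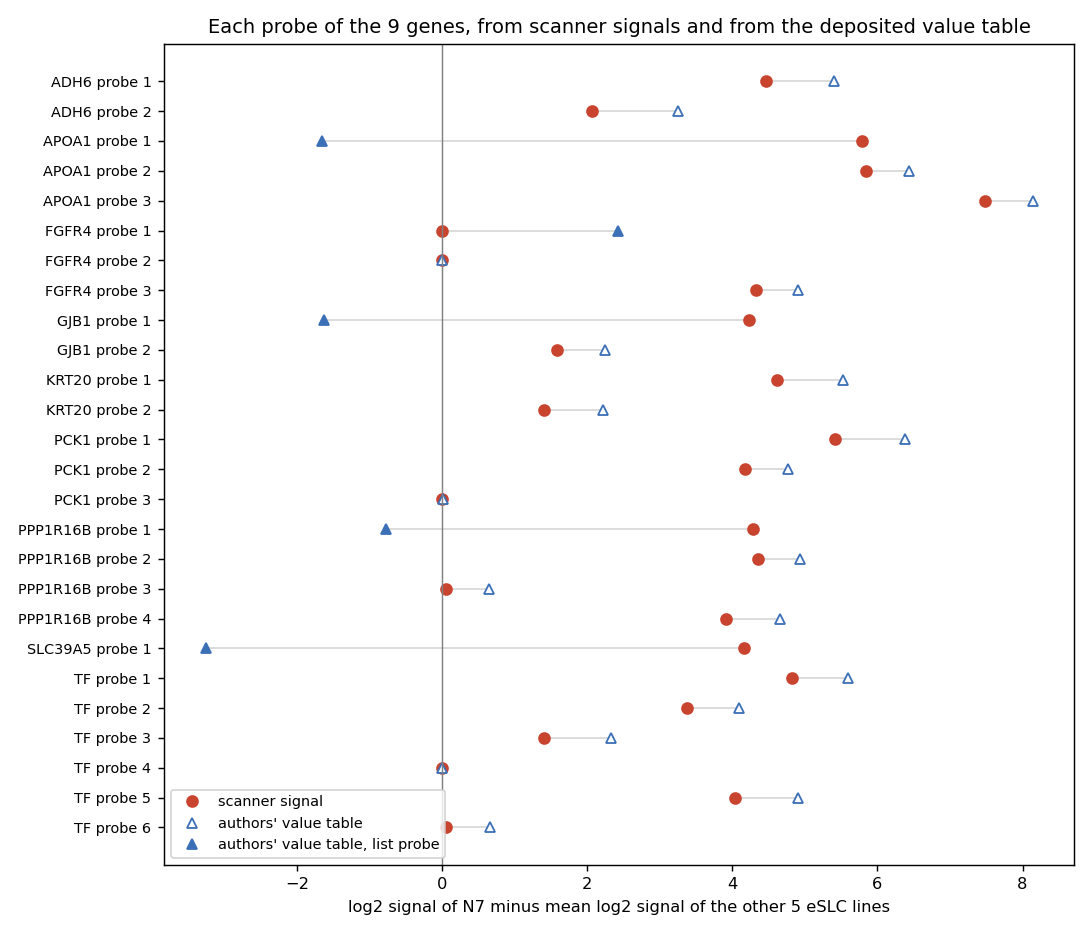
For each of the 26 probes of the 9 genes, the log2 signal of N7 minus the mean of the other 5 eSLC lines, from scanner signals (red circles) and from the authors' value table (blue triangles, filled for list probes). Open triangles follow the circles, while the 4 filled triangles of APOA1, GJB1, PPP1R16B and SLC39A5 lie below 0 where their circles lie above 4.

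The other 3 conditions were compared with each other in fits that took their spread from all arrays, N7 included. In limma fits over all 8 arrays, with 10958 genes tested and p-values adjusted over all of them by the Benjamini-Hochberg method, 7 of the 9 genes could be tested. ADH6 and KRT20 were not well above background on both arrays of any condition. None of the 7 passed between IVP-eSLCs and SCs, where 32.3% of all genes were called, nor between PA-eSLCs and SCs (35.2%). The choice of genes by their height in N7 widened this spread and bounded their signals elsewhere. Nothing about the genes can thus be read from that count. SLC39A5 was 1.52 higher on the log2 scale in IVP-eSLCs than in SCs (SE 1.23, limma adjusted p = 0.370) and 1.91 higher in PA-eSLCs (SE 1.23, adjusted p = 0.253).

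The spread in this fit was shared with the NT pair, that is with N7. Without N7 the SE of SLC39A5 was 0.34, and its differences had limma adjusted p-values of 0.0244 (IVP-eSLCs) and 0.0117 (PA-eSLCs). FGFR4 was 1.62 higher in IVP-eSLCs and 1.89 higher in PA-eSLCs than in SCs on the log2 scale. Its limma adjusted p-values were 0.405 and 0.323 in the fit over all arrays and 0.0491 and 0.0303 without N7. Both SC values of FGFR4 were at the floor, so its differences are lower bounds and the SC pair shows no spread. PCK1 was 1.82 higher in IVP-eSLCs (adjusted p = 0.354, and 0.0347 without N7), and in PA-eSLCs it was 0.78 higher (adjusted p = 0.686, and 0.224 without N7). Without N7, 3723 and 4047 of 11051 genes were called in the same comparisons. Both IVP arrays lay on the first slide and both PA arrays on the second, with 1 SC array on each. With the slide as a block, over all 8 arrays, the differences of IVP-eSLCs from SCs were 0.53 for SLC39A5 (limma adjusted p = 0.750), 0.46 for FGFR4 (adjusted p = 0.813) and 0.31 for PCK1 (adjusted p = 0.810). Those of PA-eSLCs were 2.90 for SLC39A5 (adjusted p = 0.114) and 3.06 for FGFR4 (adjusted p = 0.132). Only the NT pair and the SC pair lay across both slides, so the slide term of this fit held the gap between N7 and N2. The choice of genes set that gap, so no slide effect can be read from these differences.

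APOA1 was 1.63 lower in IVP-eSLCs than in SCs on the log2 scale, with an SE of 1.99 (limma adjusted p = 0.553, and 0.225 without N7). With the slide as a block the difference of APOA1 was -3.24 (limma adjusted p = 0.237), again with the height of N7 in the slide term. GJB1 differed by 0.09 and TF had floor values in both conditions. Between PA-eSLCs and IVP-eSLCs none of the 7 passed, with limma adjusted p-values from 0.923 to 1, and 0 genes passed in all, with 568 at an unadjusted p under 0.05. The methods' t-test passed 1 gene there. The IVP and PA comparisons share the SC arrays.

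Cell type markers did not place N7 as liver or gut. Of 8 hepatocyte markers, AHSG, HNF4A and SERPINA1 were higher in N7. AHSG, which encodes the plasma protein fetuin-A, was 5566 in N7 and 21.6 to 58.1 in the other lines. Albumin, the most abundant product of hepatocytes, was 23.8 in N7 and 18.4 in P1 and at the floor on the other 6 arrays. AFP was 15.9, TTR 22.2 and CPS1 18.8 in N7, and FGB was at the floor. TTR was 2820 and 2507 in SCs, so that the summed hepatocyte markers ran to 14874 in N7, 164 to 219 in the other lines and 2646 to 2975 in SCs.

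Of 6 intestinal markers only LGALS4 was higher, with 579 in N7 against 80.5 to 245 in the other lines. VIL1 was 139 in N7 but 128 in N2 and 115 in I9, and CDH17 was 47.2 in N7 and 31.8 in I9. FABP1 and FABP2 were at the floor in all 6 eSLC lines, and CDX1 was at the floor in N7 and at most 14.3 (P1) in the others. The 9 genes are therefore named here as genes, without a cell type.

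Of the visceral endoderm markers 4 were on the array. GATA4 was higher in N7 (2918 against 23.1 to 180), SOX17 was 2664 and within the range of the other lines, AMN was 2733 and below P1 (6309), and CUBN was at the floor. All 5 trophectoderm markers were present in N7, with CDX2 at 6567, within the range of the other lines, and GATA3 at 17104, below them. KRT8 was 135062 and KRT18 130603, both below the other lines (lowest 187569 and 172068). The summed trophectoderm markers were 300029 in N7, below 412300 to 820757 in the other lines, and at most 3600 in SCs. KRT8 and KRT18 make up most of these sums and lie at the bright end where N7 read low. With quantile normalization the sum was 484543 in N7, within the 472584 to 553722 of the other lines. Their part in the height of the 9 genes was not tested. Summed fibroblast markers were 2626 in N7, 3337 to 5649 in the other lines, and 418977 to 544985 in SCs.

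**Figure D4:**
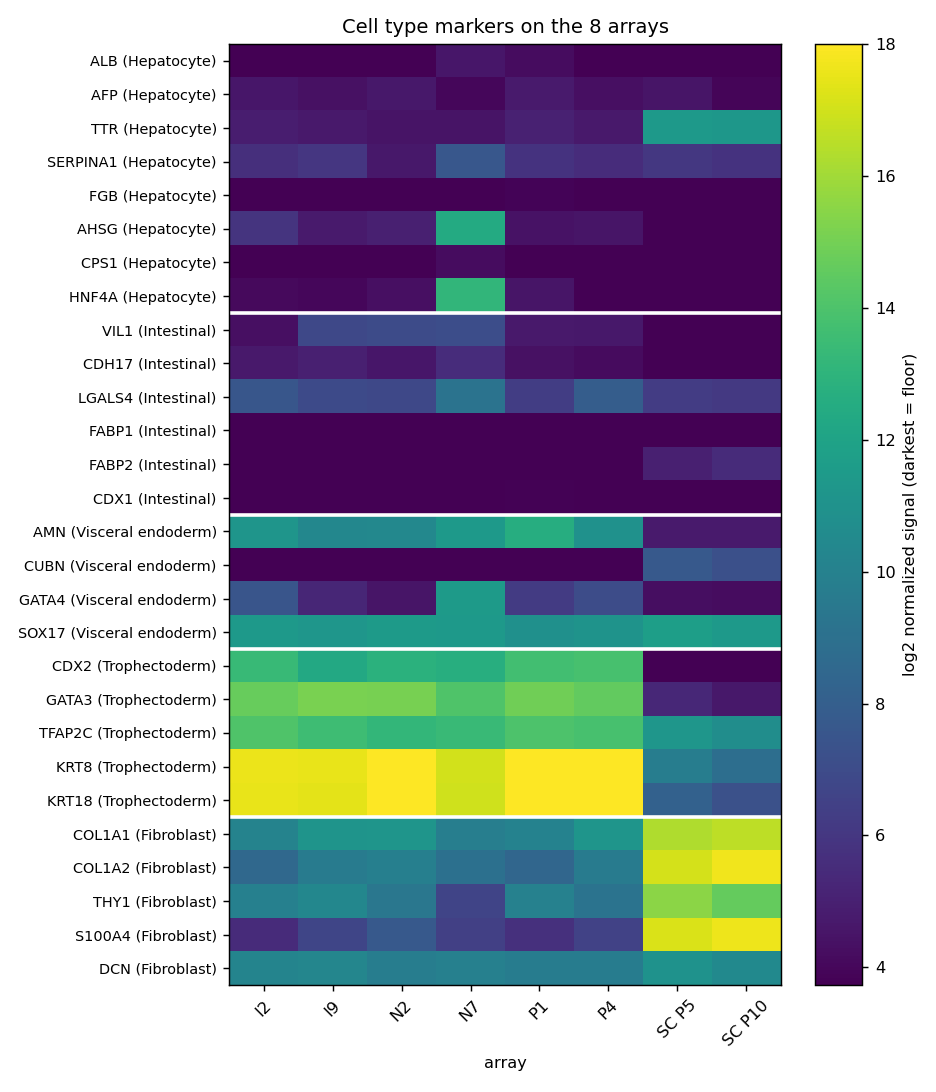
Log2 normalized signal of cell type markers (rows, grouped by cell type) on the 8 arrays (columns), from the floor (darkest) to 18. AHSG, HNF4A and GATA4 stand out in N7, ALB, FGB, CPS1, FABP1 and CDX1 are dark or nearly so on every array, and the trophectoderm markers are bright in all 6 eSLC lines.

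Wider gene lists were set beside the shares over all genes, 2.66% higher and 2.36% lower. The lists were drawn up with earlier results of these data known, so their shares are a description and not a test. Of 34 other genes for proteins secreted by hepatocytes, 10 were higher in N7 (29.4%) and 0 lower, while the median difference of the list was 0.00, as 24 did not pass. FETUB, which encodes fetuin-B, was 23690 in N7, 35.0 in P1 and at the floor on the other 6 arrays. APOH, beta-2-glycoprotein I of plasma, was 1277 in N7 and at the floor elsewhere, at least 96.2-fold higher. F2, which encodes prothrombin, was 7084 in N7, 435 to 2241 in the other lines and at the floor in SCs.

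RBP4, the retinol carrier, was 3120 in N7 and 168 to 449 in the other lines, but 3287 and 4633 in SCs. HGFAC, a serine protease of plasma, was 1542 in N7 and 166 to 368 in the other lines. The genes near APOA1 and ADH6 in the RefSeq gene order were also measured. Among 36 such neighbours, 2 on each side of each of the 9 genes, 2 were higher in N7, APOC3 next to APOA1 (64.4 in N7, at most 18.1 in the other lines) and ADH1C next to ADH6 (32.0 in N7, at the floor elsewhere). None was lower, and APOA4 did not pass, with 143 in N7 and 76.1 in P4.

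Of 21 liver and endoderm transcription factors, 6 were higher in N7 (28.6%) and 0 lower, with a list median of 0.00. HNF4A was 9022 in N7, 13.3 to 23.4 in the other lines and at the floor in SCs. Its signal came from 1 probe of 4, as the others had 39.9, 17.8 and the floor in N7. NR5A2, a nuclear receptor of bile acid and pluripotency genes, was 112 in N7 and ONECUT1 53.1, both at the floor elsewhere. PPARGC1A, the coactivator PGC-1alpha that acts on PCK1, was 402 in N7 and 71.3 to 194 in the other lines.

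Of 33 genes of hepatocyte metabolism, 2 were higher (6.06%) and 2 lower (6.06%). SLC2A2, the glucose transporter GLUT2, was 263 in N7 and at the floor elsewhere, at least 19.8-fold higher, and ADH1C was the other. ASS1, an enzyme of the urea cycle, was 657 in N7 and 2217 to 6398 in the other lines. FAH, an enzyme of tyrosine breakdown, was 591 in N7 and 2284 to 4317 in the other lines. Both enzymes were thus lowest in N7, which was also below both SC arrays.

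Of 34 genes of intestinal epithelium, 3 were higher (8.82%) and 1 lower (2.94%). GUCA2A, which encodes guanylin, was 760 in N7 and at most 20.7 in the other lines, and GUCA2B, which encodes uroguanylin, was 57.8 in N7 and at the floor elsewhere. Their receptor GUCY2C was lower, 89.2 in N7 and 181 to 427 in the other lines. Of 18 genes of visceral endoderm and yolk sac, 9 were higher and 0 lower, with a list median of 1.39, and 4 of the 9, among them HNF4A, GATA4 and RBP4, also stood in the liver lists. Several of them are matrix or signalling genes, as FN1, fibronectin, was 64259 in N7 and 7318 to 18836 in the other lines and SPARC was 19470 against 2258 to 6058. PDGFRA, a receptor of primitive endoderm and of fibroblasts, was 1422 in N7, 42.6 to 276 in the other lines and 5575 and 5155 in SCs.

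**Figure D5:**
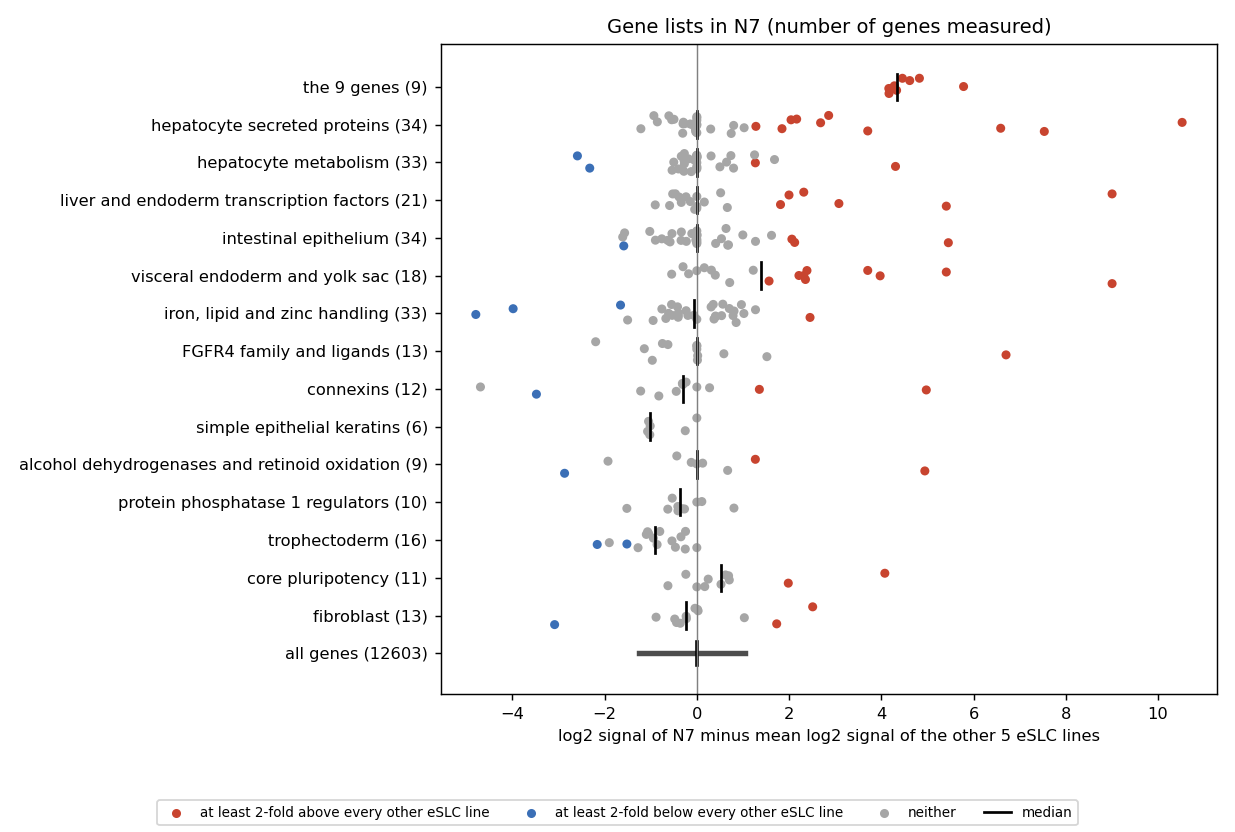
Log2 signal of N7 minus the mean of the other 5 eSLC lines for each gene (points) of the gene lists, with list medians as black bars and the number of genes measured in parentheses; the bottom bar spans the 5th to 95th percentile of all genes (-1.26 to 1.03). Red points were at least 2-fold above every other eSLC line and blue points at least 2-fold below. Visceral endoderm has the highest median of the lists, 1.39, apart from the 9 genes, and the simple epithelial keratins have a median of -1.02.

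Of the 46 genes of all lists that passed in either direction, 20 rested on a list probe, among them RBP4, HGFAC, GATA4, PPARGC1A, LGALS4, PDGFRA, FN1, SPARC, ASS1 and FAH. By the authors' values, 6 genes of the secreted proteins, 4 of the transcription factors and 5 of visceral endoderm and yolk sac were higher in N7. With those values and each gene's brightest probe outside the list the counts were 10, 7 and 10. Among genes well above background on all 8 arrays, by scanner signal, they were 4, 2 and 6. The background moved as well. Over all genes, 429 of 12603 were higher by the authors' values, 605 of 10160 by those values outside the list, and 133 of 9357 with the filter on all 8 arrays. HNF4A, FETUB, APOH, AHSG and KLB did not rest on list probes.

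Relatives and partners of the 9 genes gave a mixed picture. For FGFR4, KLB (beta-klotho), the co-receptor with which it binds FGF19, was 1384 in N7 and at the floor on the other 7 arrays, at least 104-fold higher. Of 13 genes of the FGFR4 family, ligands and feedback inhibitors, KLB was higher and 0 were lower. With median scaling or quantile normalization 1 was lower, SPRY1, a feedback inhibitor of receptor signalling, which was 241 in N7 and 481 to 560 in the other lines. FGFR1 was 1.52 above and FGFR2 0.75 below the mean of the other lines on the log2 scale without passing.

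Of 12 other connexins, 2 were higher and 1 lower. GJA1, connexin 43, was 4425 in N7, 62.2 to 189 in the other lines and 41160 and 41851 in SCs. GJA4 was 36.1 in N7 and at most 16.9 in the other lines. GJB2, connexin 26, was 125 in N7 and 513 to 4490 in the other lines. It thus lay lowest in the line where the brightest probe of GJB1 was highest.

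None of 6 simple epithelial keratins other than KRT20 passed, and their median difference was -1.02 on the log2 scale, or -0.14 with quantile normalization. Of 9 genes of alcohol dehydrogenases and retinoid oxidation, ADH1C and ALDH1A1 were higher and ADHFE1 lower. ALDH1A1, an enzyme that makes retinoic acid, was 409 in N7, at the floor in the other 5 lines, and 14881 and 13508 in SCs. ADHFE1 was at the floor in N7 and 52.4 to 231 in the other lines. None of 10 other regulators and subunits of protein phosphatase 1 passed.

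Of 33 genes of iron, lipid and zinc handling, 1 was higher (3.03%) and 3 lower (9.09%), with a list median of -0.06. SLC30A10, a manganese exporter, was 72.8 in N7 and at the floor elsewhere. The lower ones all bear on zinc. The metallothionein MT1A was 2337 in N7 and 16400 to 111848 in the other lines, and MT2A was 249 in N7, 2975 to 15865 in the other lines and 1036 and 2255 in SCs. SLC39A2, the zinc importer ZIP2, was 18907 in N7, 46031 to 81124 in the other lines and at the floor in SCs. N7 thus had the least SLC39A2 and metallothionein signal of the 6 lines, where MT1A rested on a list probe. The height of SLC39A5 in N7 is how that gene was picked, and it too rested on a list probe.

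In the limma comparison of NT-eSLCs with IVP-eSLCs, which holds N7 and N2 as 1 group, 0 of 194 tested genes of these lists passed and 0 of all 10958 genes. At an unadjusted p under 0.05 there were 13 of the 194 and 306 of all. The methods' t-test also passed 0 genes. A gap between N7 and N2 widens the spread in these tests, so a gene high or low in N7 alone can hardly pass. Nothing about such genes can be read from these counts. Leaving out N2 would leave N7 alone in its group, so no count is given for that fit.

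The 15 other genes whose N7 signal lay farthest above all 7 other arrays were FETUB, HNF4A, COX7B2, LOC507201, PCP4, KLB, APOH, AHSG, HABP2, SLC10A4, PDE6C, KIT, COL18A1, CLSTN3 and MAGEB16, in that order. Of these, 5 were in the lists above, and 8 were at the floor on all of the other 7 arrays. Their Pearson r with the mean log2 profile of the 9 genes was 0.92 to 0.995 over 8 arrays, a value that 1 high array sets almost alone.

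HABP2, a plasma serine protease, was 1265 in N7. COL18A1, a basement membrane collagen, was 35285 in N7 and 289 to 674 in the other lines, with 5 of its 6 probes higher. CLSTN3, a calsyntenin, was 8376 in N7 and 90.9 to 181 in the other lines. Genes outside liver and gut stood among them too. KIT, the receptor for stem cell factor, was 724 in N7, and COX7B2 (2141) and MAGEB16 (571), both best known from testis, were likewise at the floor on all other arrays. For 11 of the 15, every probe on the array was higher in N7. Among these, COX7B2, LOC507201, PCP4, KLB, HABP2 and MAGEB16 had only 1 probe each, the one by which they were ranked.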

How the data were processed

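Each of the 8 RNA samples was hybridized to 1 Agilent bovine array, scanned and quantified by the authors with Feature Extraction 11.5.1.1 (version per the file headers). The deposited scanner files hold linear intensity values per spot. The authors' value table (series matrix) is a second deposited set of intensity values whose exact processing is not given in the sources used here, with processed signals in 6 of the 8 scanner files out of step with their other columns. The submitters normalized in GeneSpring.

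Background-subtracted intensity was divided by the 75th percentile of each array and set to 1000, control and outlier spots were left out, values were floored at 13.3 (the highest of the arrays' lowest well-above-background signals), and log2 was taken. Probes were named through their RefSeq accession and the RefSeq table (26743 of 43653 probes, 12603 genes). A gene was represented by its brightest probe. Neighbouring genes came from the order of that table, whose assembly differs from the build of the files, so no coordinates are given.

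Conditions were compared with limma 3.58.1 in R 4.3.3 on genes well above background on all arrays of at least 1 condition (adjusted p under 0.05 and 2-fold). Each condition had 2 arrays, for which an exact permutation test of 1 gene cannot go below p = 0.333. Replicates are different lines, or passages of the SCs whose independence is not stated. On simulated data for the IVP-eSLC and SC comparison with 200 of 10958 genes changed 4-fold, 43.5% were recovered and 3 unchanged genes were called. Array number limits precision.

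Genes named were the 9 genes with every probe, genes of 14 lists that passed the 2-fold rule in N7 (up to 6 a direction), markers, and the 15 genes farthest above all other arrays. Values of FGFR1, FGFR2 and APOA4 were added after they were seen. The members and lists were chosen with earlier results of these data known. Alternatives were other scalings, normexp, the processed signal, the authors' table, the mean of probes, filters, a 4-fold rule, the slide as a block, the methods' t-test, fewer conditions and leaving out each array. Promoter and protein sequences were not analysed here, and some genes that the counts include are not reported here.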

Additional observations from a re-analysis of the deposited data

How the results depend on the processing

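All 9 genes were higher in N7 with median scaling, quantile normalization, normexp on the median signal (chosen after seeing the data, as normexp on the mean signal could not be run), the mean of probes, no filter, the 4-fold rule, and without each of the other eSLC lines in turn. The count was 0 with the processed signal, 5 with the authors' table and 5 with the filter on all 8 arrays, which left only 5 of the 9 genes. The median difference of the 9 genes was 4.33, and 4.23 to 4.54 without single lines. It was 3.59 with normexp, 3.15 with the mean of probes, 5.16 with the authors' table outside list probes (added after seeing the data), and -0.73 with the processed signal. By gene, the processed signal gave -1.63 for APOA1, -0.73 for TF, -1.60 for GJB1, -3.23 for SLC39A5 and -0.73 for PPP1R16B, and the authors' table -1.67, -1.64, -3.26 and -0.77 for the same genes without TF. Outside the list probes, the processed signal of N7 had a Spearman correlation of only 0.01 with its background-subtracted signal. Values from the processed signal are therefore given for completeness. The cause was not tested.

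Genes higher in N7 numbered 335, and 356 to 367 without single lines, 207 with normexp, 56 with the processed signal, 605 with the authors' table outside list probes, 133 with the filter on all arrays and 158 at 4-fold. Genes lower numbered 297, and 329 to 366 without single lines, 1003 with the processed signal, 1327 with the authors' table, 86 with it outside list probes and 59 at 4-fold.

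For IVP-eSLCs against SCs, 3541 genes were called, and 2050 to 3723 without single arrays (2050 without SCs at passage 5, 2136 without SCs at passage 10), 285 with the processed signal, 2154 with the authors' table outside list probes, 884 with the methods' t-test and 2019 with the SC arrays as 1 sample. Of the 9 genes 0 were called, 0 to 3 without single arrays (3 without N7 and 2 without N2), and 2 with only the conditions compared. FGFR4 was -0.71 with the processed signal. For PA-eSLCs against SCs, 3862 genes were called, and 2235 to 4047 without single arrays, 252 with the processed signal, 2323 with the authors' table, 2092 with it outside list probes, 1666 with the methods' t-test and 2304 with the SC arrays as 1 sample. Of the 9 genes 0 were called, 0 to 2 without single arrays, 1 each with the processed signal, the authors' table and the t-test (SLC39A5), and 2 with only the conditions compared.

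For PA-eSLCs against IVP-eSLCs, 0 genes were called, 0 to 2 without single arrays, 1 with the t-test and 5 with the authors' table, of which 1 was SLC39A5. For NT-eSLCs against IVP-eSLCs, 0 genes were called, 0 to 152 without single arrays (5 without I9) and 117 with the authors' table, with 0 to 17 and 9 list genes. No paired analysis was made because nothing in the labels joins a sample of one condition to one of another. Signals at the floor have no order, which limits statements on ADH6, TF and KRT20, and on FGFR4 in SCs.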

Other observations

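Genes of other groups also set N7 apart. Of 11 core pluripotency genes, 2 were higher in N7 (18.2%). POU5F1, which encodes OCT4, was 898 in N7, 30.7 to 101 in the other lines and 16.3 and 26.0 in SCs, and its second probe had 251 in N7 and at most 19.6 in the other lines. LEFTY2, an inhibitor of NODAL signalling, was 143 in N7 and 27.9 to 50.9 in the other lines. Of 16 trophectoderm genes, SSLP1 (22846 in N7, 52466 to 168693 in the other lines) and PLAC8A (61675, and 136760 to 251345) were lower. With quantile normalization neither passed and the median of the list went from -0.90 to -0.44.

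Of 13 fibroblast genes, TPM2 (72.3 in N7, at most 35.9 in the other lines) and LUM (99.0, at most 28.8) were higher and THY1 (103, and 585 to 1272) lower, while they were 25358 to 53235 in SCs. Outside the lists, and chosen after its values were seen, IHH, a hedgehog ligand of gut and visceral endoderm, was 2278 in N7 and 14.0 to 72.0 in the other lines.

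Genes of the Y chromosome were also looked at after the values were seen. EIF1AY was 513 in N7 and at the floor on the other 7 arrays. DDX3Y was 757 in N7 and 369 in P1, and 1 of 2 probes of USP9Y had 186 in N7 and 157 in P1, while all were at the floor in I2, I9, N2, P4 and SCs. ZFY was well above background on all 8 arrays, with 150 in N7, 66.7 to 135 in the other eSLC lines and 184 and 169 in SCs. P1 is labelled as parthenogenetic, an origin without a paternal genome, and these values were not tested further.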
